A study of Mus musculus with 2 samples.

Results

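The mouse mitochondrial genome encodes 37 genes, and their transcripts are described here in embryonic heart. The members were taken by name, as every gene whose GENCODE M21 symbol starts with mt-, which gave 37 of the 43346 Ensembl genes in the files: 13 mRNAs, 2 rRNAs and 22 tRNAs. The RNA came from whole hearts of healthy B6NCrl mouse embryos of both sexes at embryonic day 15.5, with no treatment or altered allele named. Hearts of 78 embryos were pooled for replicate 1 and hearts of 62 embryos for replicate 2, and each pool gave 1 library made from 10 ng of RNA longer than 200 nucleotides. The series holds this single group, so no condition was compared, and the spread given here is that between 2 pools rather than between embryos. With 2 libraries the smallest exact sign-flip p is 0.5, so no test was made.

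The circular mitochondrial genome is transcribed from both of its strands into long precursors by the polymerase POLRMT with the factor TFAM. In most places tRNAs lie between the larger genes, and their excision by RNase P and ELAC2 releases the mRNAs and rRNAs, most of which then receive short poly(A) tails. The mRNAs encode core subunits of respiratory complexes I, III and IV and of the ATP synthase, complex V, and adult heart muscle depends on these complexes for nearly all of its ATP. Most mitochondrial genes are read with the heavy strand as template, and the remainder with the light strand.

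Mitochondrial genes received 1523936 of the 41221435 expected counts of Ensembl genes in replicate 1, a share of 3.70% (95% Wilson interval 3.69 to 3.70%). In replicate 2 they received 957135 of 38457396 expected counts, a share of 2.49% (2.48 to 2.49%). These intervals cover counting error only, since without molecular identifiers reads may repeat a molecule. The mean share was 3.09% ± 0.854 (SD, n = 2), with replicate 1 the higher library. In TPM, the files' level of a transcript corrected for effective length and summed over all features, the members made up 5.89% of replicate 1 and 4.06% of replicate 2. In bulk tissue, fewer cells of a type and less RNA per cell cannot be told apart.

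Counts were also assigned to near-identical copies of mitochondrial DNA in the nuclear genome, and this concerned 6 of the 13 mRNAs. The origin of these counts, mitochondrial or nuclear, is not known. Alignment of the GENCODE M21 transcripts found 7 annotated unprocessed pseudogenes on the minus strand of chromosome 1 (mm10) that match a mitochondrial gene at 98% identity or more over at least 200 bases. They follow each other in the order of the mitochondrial genes. Gm29216 (chr1:24615706-24616197) matches bases 1063 to 1545 of mt-Co1 at 99.8%, and Gm28661 (chr1:24614885-24615565) matches mt-Co2 over 681 bases at 100%. Gm10925 (chr1:24613974-24614651) matches mt-Atp6 over 678 bases at 100%, and Gm28437 (chr1:24613189-24613971) matches mt-Co3 over 783 of its 784 bases at 100%. Gm28438 (chr1:24612775-24613119) matches mt-Nd3 over 345 bases at 99.7%, and Gm10222 (chr1:24612407-24612700) matches mt-Nd4l over 294 bases at 100%. Gm28439 (chr1:24611535-24612410) matches the first 876 of the 1378 bases of mt-Nd4 at 100%.

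The ends of mt-Co3 and of its copy show how little there is to tell them apart. The capital marks the last base of the gene, which the copy lacks; the sequences are those of the GENCODE M21 transcripts.
mt-Co3: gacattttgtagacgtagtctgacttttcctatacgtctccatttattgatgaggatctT
Gm28437: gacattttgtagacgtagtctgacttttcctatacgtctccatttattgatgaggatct

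The start of mt-Nd3 and of Gm28438 differs by T3C, counted from the first base of mt-Nd3, and the differing base is in capitals.
mt-Nd3: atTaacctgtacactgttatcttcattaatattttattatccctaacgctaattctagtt
Gm28438: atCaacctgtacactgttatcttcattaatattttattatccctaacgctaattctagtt

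Gm29216 departs from mt-Co1 only near the point where the copy begins. Capitals mark the differing bases between mt-Co1 bases 1054 to 1113 and the first 60 bases of the copy, and 1 of these, A1066T, lies inside the aligned stretch.
mt-Co1: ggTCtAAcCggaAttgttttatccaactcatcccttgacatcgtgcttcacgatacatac
Gm29216: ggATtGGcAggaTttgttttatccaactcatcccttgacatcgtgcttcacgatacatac

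The effective lengths in the files equal the length minus 99 bases, as for reads of 100 bases, so windows of 100 bases were compared. Of the windows of mt-Co3, 684 of 685 (99.9%) also occur in another transcript. The figure was 582 of 585 for mt-Co2, 579 of 582 for mt-Atp6, 195 of 198 for mt-Nd4l and 243 of 249 for mt-Nd3. It was 777 of 1279 (60.8%) for mt-Nd4, 446 of 1446 (30.8%) for mt-Co1 and 30 of 939 for mt-Nd2. No window of mt-Rnr1, mt-Rnr2, mt-Nd1, mt-Atp8, mt-Nd5, mt-Nd6 or mt-Cytb was shared, so the counts of these 7 genes do not depend on how reads were divided.

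The division between gene and copy was uneven and differed from pair to pair. Of the counts of mt-Co3 and Gm28437 together, the copy held 77.5% in replicate 1 (260150 of 335468) and 88.8% in replicate 2 (204605 of 230509). For mt-Nd4l and Gm10222 the copy held 91.2% and 84.4%, and for mt-Nd3 and Gm28438 78.4% and 78.8%. The copy of mt-Co2 held 61.9% and 65.2% of its pair. That of mt-Co1, which covers only the end of the gene and shares 380 of its 1446 windows, held 22.5% and 22.8%. These 2 percentages are of counts over the whole gene, so they are unlike those of copies that span nearly all of theirs. Gm10925 held only 5.33% and 2.08% of the counts it shares with mt-Atp6, and Gm28439 only 3.22 and 6.04 counts against 85962 and 63572 for mt-Nd4. Pairs of near-identical sequence were therefore divided unevenly, with 2.08% to 91.2% of counts on the copy in these 6 pairs, and how far the nuclear copies are transcribed cannot be told from these counts.

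**Figure D1:**
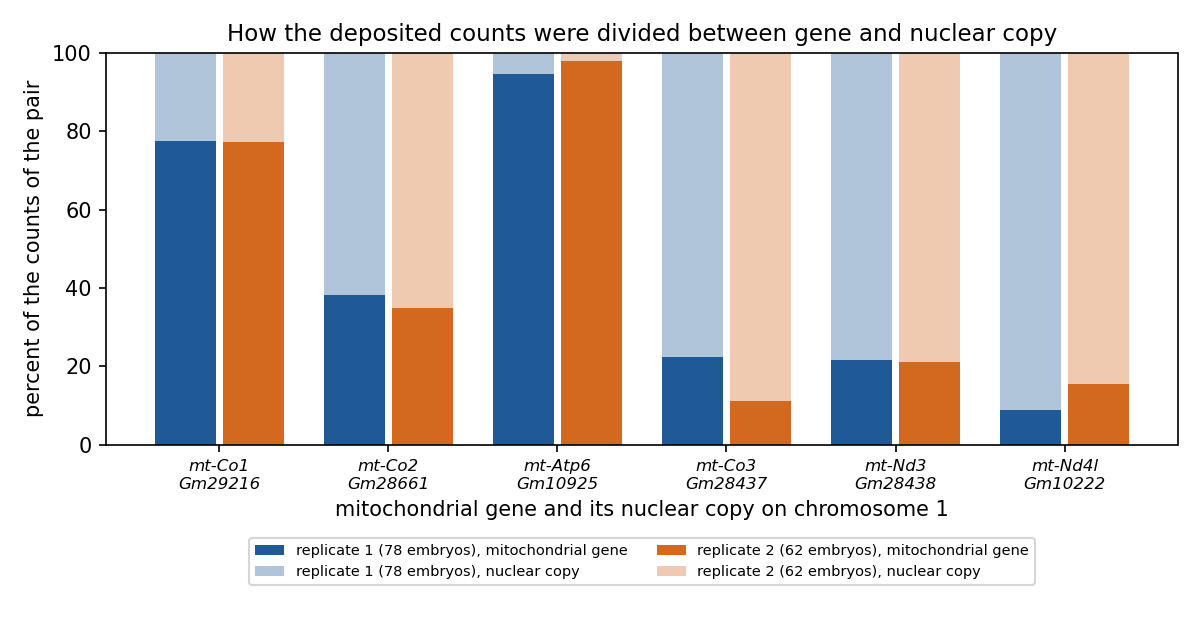
Percent of the counts of each pair (vertical axis) that the deposited files assigned to the mitochondrial gene (dark) and to its nuclear copy (pale), for the 6 pairs in which the copy took reads, with replicate 1 in blue and replicate 2 in orange. The copy of mt-Co3 held 77.5% in replicate 1 and 88.8% in replicate 2, and that of mt-Atp6 5.33% and 2.08%.

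The authors' files carry a posterior standard deviation for each count, which follows the same pattern. In replicate 1 it was 78359 counts for mt-Co3, on a posterior mean count of 128224 and an expected count of 75318. It was 28516 for mt-Co2, 23332 for mt-Atp6 and 571 for mt-Nd3. It was 0 for the 7 genes with no shared window. The deposited intervals for TPM, whose level the headers do not name, ran from 2107 to 11602 TPM for mt-Co3 in replicate 1 and from 875 to 8680 TPM in replicate 2. They overlapped between the libraries for 4 of the 15 measured genes, mt-Co2, mt-Atp6, mt-Co3 and mt-Nd4l. For these reasons each value of the 6 mRNAs is given as deposited and again with the counts of the copy added, which is an upper level for the mitochondrial gene as far as these 6 copies go. With the 6 copies added, the mitochondrial share of counts was 4.82% in replicate 1 and 3.37% in replicate 2.

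The 2 rRNAs, which form the RNA core of the mitochondrial ribosome, lie side by side at the start of the heavy-template transcripts with mt-Tv between them. mt-Rnr1 (chrM:70-1024), the rRNA of the small subunit, was at 2044 TPM in replicate 1 and 1058 TPM in replicate 2. mt-Rnr2 (chrM:1094-2675), the rRNA of the large subunit, was at 7183 and 3922 TPM. Both were lower in replicate 2, while the ratio of mt-Rnr2 to mt-Rnr1 was 3.51 and 3.71. The rRNAs took 26.4% of the mitochondrial counts in replicate 1 and 20.4% in replicate 2 as deposited. Their summed TPM was 0.186 and 0.140 times that of the mRNAs. With the copies added to the mRNAs the share was 20.3% and 15.1%, and the TPM ratio 0.128 and 0.0928. The labels link the manual of a kit that primes with oligo(dT), and the part of priming in these values was not tested.

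The ATP synthase mRNAs were the highest as deposited. mt-Atp6 (chrM:7927-8607), which encodes subunit a of the proton channel, was at 12394 and 9431 TPM, and 13092 and 9632 TPM with Gm10925 added. It ranked 5 among all Ensembl genes in replicate 1 and 9 in replicate 2. mt-Atp8 (chrM:7766-7969), a small membrane subunit encoded on the same bicistronic mRNA, was at 9925 and 6051 TPM. The ratio of mt-Atp8 to mt-Atp6 with its copy was 0.758 and 0.628, although the pair is read from a single transcript. Their frames overlap by 43 bases, printed here with the start codon of mt-Atp6 and the stop codon of mt-Atp8 in capitals.
mt-Atp8 and mt-Atp6 overlap: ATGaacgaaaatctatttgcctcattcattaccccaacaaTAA
The effective length of mt-Atp8 is only 105 bases, so its TPM rests on few read positions.

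The cytochrome c oxidase mRNAs encode the catalytic core of complex IV. mt-Co1 (chrM:5328-6872), which encodes the subunit with the heme a3 and copper B centre, was at 4575 TPM in replicate 1 and 3712 TPM in replicate 2, and 5902 and 4810 TPM with the copy. mt-Co2 (chrM:7013-7696), whose subunit carries the copper A centre, was at 3156 and 2093 TPM, and 8277 and 6010 TPM with the copy. mt-Co3 (chrM:8607-9390), a structural core subunit, was at 3386 and 1304 TPM, and 15083 and 11606 TPM with the copy. As deposited mt-Co3 was below mt-Co1, at 0.740 and 0.351 of its level. With the copies it was above, at 2.56 and 2.41 times mt-Co1, and was the highest of the 13 mRNAs in both libraries. The place of mt-Co3 among the mRNAs therefore rested on the division of reads.

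mt-Cytb (chrM:14145-15288) encodes cytochrome b, the subunit of complex III that holds both quinone sites, and has no such copy. It was at 4932 TPM in replicate 1 and 4190 TPM in replicate 2; replicate 1 was again the higher library.

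The complex I mRNAs, which encode membrane-arm subunits, were the lowest as a group and spanned a wide range. mt-Nd1 (chrM:2751-3707), the subunit at the quinone entry, was the highest of them at 4683 and 3896 TPM. mt-Nd4 (chrM:10167-11544), an antiporter-like subunit, was at 2070 and 1714 TPM, and mt-Nd2 (chrM:3914-4951), another of that kind, at 1626 and 1103 TPM. mt-Nd5 (chrM:11742-13565), the longest antiporter-like subunit, was at 831 and 712 TPM, and its mRNA was the lowest of the 13 in both libraries once copies were added. mt-Nd3 (chrM:9459-9806) was at 733 and 424 TPM, and 3389 and 2003 TPM with the copy. mt-Nd4l (chrM:9877-10173) was at 104 and 169 TPM, the lowest values as deposited, and 1184 and 1083 TPM with the copy. mt-Nd4l and mt-Nd4 share a bicistronic mRNA and overlap by 7 bases. Their ratio was 0.0501 and 0.0983 as deposited, and 0.572 and 0.632 with Gm10222 added to mt-Nd4l.

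With copies added the mRNAs stood in nearly the same order in both libraries: mt-Co3, mt-Atp6, mt-Atp8, mt-Co2, mt-Co1, mt-Cytb, mt-Nd1, mt-Nd3, mt-Nd4, mt-Nd2, mt-Nd4l, mt-Nd6 and mt-Nd5, from the highest mean to the lowest. Only mt-Nd4l and mt-Nd6 changed places between the libraries. Of the 12 neighbouring pairs in that order, 8 had ranges that overlapped across the 2 libraries, and the steps from mt-Co2 to mt-Co1, mt-Nd1 to mt-Nd3, mt-Nd4 to mt-Nd2 and mt-Nd6 to mt-Nd5 did not. The highest mRNA was 18.1 times the lowest in replicate 1 and 16.3 times in replicate 2, against 120 and 55.9 times as deposited. Adding the copies thus narrowed the range of levels in both libraries. The median of the 13 mRNAs was 3156 and 1714 TPM as deposited and 4683 and 3896 TPM with the copies.

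**Figure D2:**
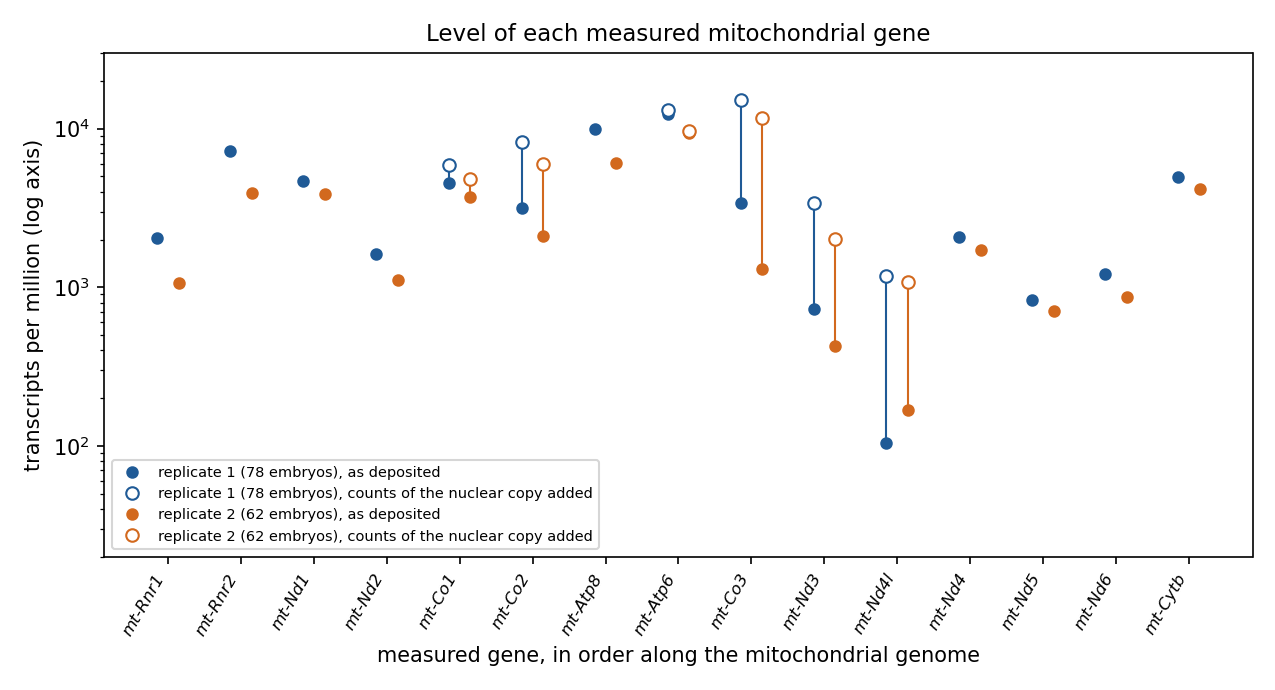
Level of the 15 measured mitochondrial genes in TPM on a log axis, in their order along the genome, for replicate 1 (blue) and replicate 2 (orange), with filled points as deposited and open points with the counts of the nuclear copy added. mt-Co3 moves from 3386 to 15083 TPM in replicate 1 and mt-Nd4l from 104 to 1184 TPM, while genes with no copy have a single point per library.

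Of the 37 genes, 28 are read from the heavy strand as template and 9 from the light strand, and mt-Nd6 is the only light-template mRNA. mt-Nd6 (chrM:13552-14070), a core membrane subunit of complex I, was at 1220 TPM in replicate 1 and 863 TPM in replicate 2. The median of the 12 heavy-template mRNAs was 3271 and 1903 TPM, or 2.68 and 2.21 times mt-Nd6. With the copies added it was 3.94 and 4.69 times mt-Nd6, so the direction of the difference between the libraries depended on the division of reads. mt-Nd6 was not the lowest: mt-Nd5 lay below it in both libraries, and mt-Nd3 and mt-Nd4l did so as deposited. With the copy added mt-Nd4l was below it in replicate 1 alone, at 1184 against 1220 TPM. In counts, mt-Nd6 took 1.09% and 1.10% of the mitochondrial total, and 0.838% and 0.812% with the copies added. Whether the oligo(dT) priming of the linked kit manual bears on this comparison was not tested. The files and labels used here do not tell whether reads were assigned by strand, so mt-Nd6 and RNA antisense to it cannot be told apart, and its last 14 bases also overlap the end of mt-Nd5 on the opposite strand.

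The strand of origin also shows in the sequence, since the heavy strand is rich in G and its transcripts poor in it. G made up 28.1% of mt-Nd6 and between 5.88% and 16.1% of the 12 heavy-template mRNAs, while C made up 5.97% of mt-Nd6 and between 22.1% and 30.0% of the others. The first 90 bases of mt-Nd6 hold 17 G, in capitals, and those of mt-Nd5 hold none.
mt-Nd6: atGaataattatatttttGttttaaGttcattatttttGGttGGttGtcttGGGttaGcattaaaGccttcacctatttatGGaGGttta
mt-Nd5: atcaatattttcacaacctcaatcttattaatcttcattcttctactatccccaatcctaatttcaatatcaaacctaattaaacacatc

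The genes are packed closely, which sets where one transcript ends and the next begins. Of the 36 neighbouring pairs, 12 abut with no base between them, 9 overlap, and the largest gap is 32 bases, between mt-Tn and mt-Tc. In 3 mRNAs, mt-Co3, mt-Nd4 and mt-Cytb, a lone T follows the last full codon, and the stop codon is completed by the added poly(A) tail. The ends of mt-Nd4 and mt-Cytb are printed with that T in capitals, and that of mt-Co3 is shown above; the base that Gm28437 lacks is this T.
mt-Nd4 end: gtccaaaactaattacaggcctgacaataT
mt-Cytb end: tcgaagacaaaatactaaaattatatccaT

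None of the 22 tRNAs could be measured. They are 59 to 75 bases long, and the files give every one an effective length of 0 and a count of 0, as for all 2218 Ensembl genes too short for reads of this length. These zeros follow from the counting and carry no information on tRNA levels, and the size selection of RNA also removes free tRNAs. The shortest and the longest are printed to show how little of a 100-base read either could hold.
mt-Ts2: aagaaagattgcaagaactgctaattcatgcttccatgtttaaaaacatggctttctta
mt-Tl1: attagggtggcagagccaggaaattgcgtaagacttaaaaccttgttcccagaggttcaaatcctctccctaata

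Of the 15 measured genes, 14 were lower in replicate 2 than in replicate 1, and mt-Nd4l was higher as deposited. Ratios were taken between expected counts scaled by edgeR's TMM factors and are given as log2 of replicate 2 over replicate 1. In that direction 9 genes were past 1.5-fold: mt-Rnr1, mt-Rnr2, mt-Nd2, mt-Co2, mt-Atp8, mt-Atp6, mt-Co3, mt-Nd3 and mt-Nd6. Past the same fold were 4.74% of the 17029 Ensembl genes that had 10 or more counts in each library. Upwards it was none of the members and 11.2% of all genes. Against the 526 genes that had 10000 or more counts in each library, a background chosen after the values were seen, 9.70% were past the fold downwards and 0.190% upwards. These 526 include 13 of the members and some of the nuclear copies, and 509 remain without both. The median of the 13 mRNAs was -0.63, against -0.02 for all genes and -0.23 for the genes with at least 10000 counts. With 1 library a pool, these are differences between 2 libraries with no replicate check.

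The 2 rRNAs had the lowest ratios of all members not touched by a copy. mt-Rnr1 had a log2 ratio of -1.19 (95% interval for counting error -1.21 to -1.16), or 2.27-fold lower in replicate 2, and mt-Rnr2 one of -1.11 (-1.12 to -1.10), or 2.16-fold lower. Among the 526 genes with at least 10000 counts the lowest ratios were those of mt-Co3, mt-Rnr1 and mt-Rnr2, in that order. The 7 mRNAs with no copy that took reads ran from -0.95 to -0.46 with a median of -0.51, all above both rRNAs. Of these, mt-Nd5 was at -0.46, mt-Cytb at -0.47, mt-Nd1 at -0.50 and mt-Nd4 at -0.51, a narrow band. mt-Nd6 at -0.74, mt-Nd2 at -0.80 and mt-Atp8 at -0.95 lay lower, and these 3 were past the fold.

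The 6 mRNAs with a copy spread more widely as deposited. mt-Co3 had the lowest ratio of any member at -1.61 and mt-Nd4l the highest at 0.47. With the copy added, mt-Co3 was at -0.61 and mt-Nd4l at -0.37, so the distance of mt-Co3 from the other mRNAs and the opposite sign of mt-Nd4l were both absent from the summed counts. mt-Co2 moved from -0.83 to -0.70, mt-Atp6 from -0.63 to -0.68, mt-Nd3 from -1.03 to -0.99 and mt-Co1 from -0.54 to -0.53. The range of the 13 mRNA ratios narrowed from 2.08 to 0.63 log2 units. The median was -0.61 with the copies, and 9 genes were again past the fold.

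**Figure D3:**
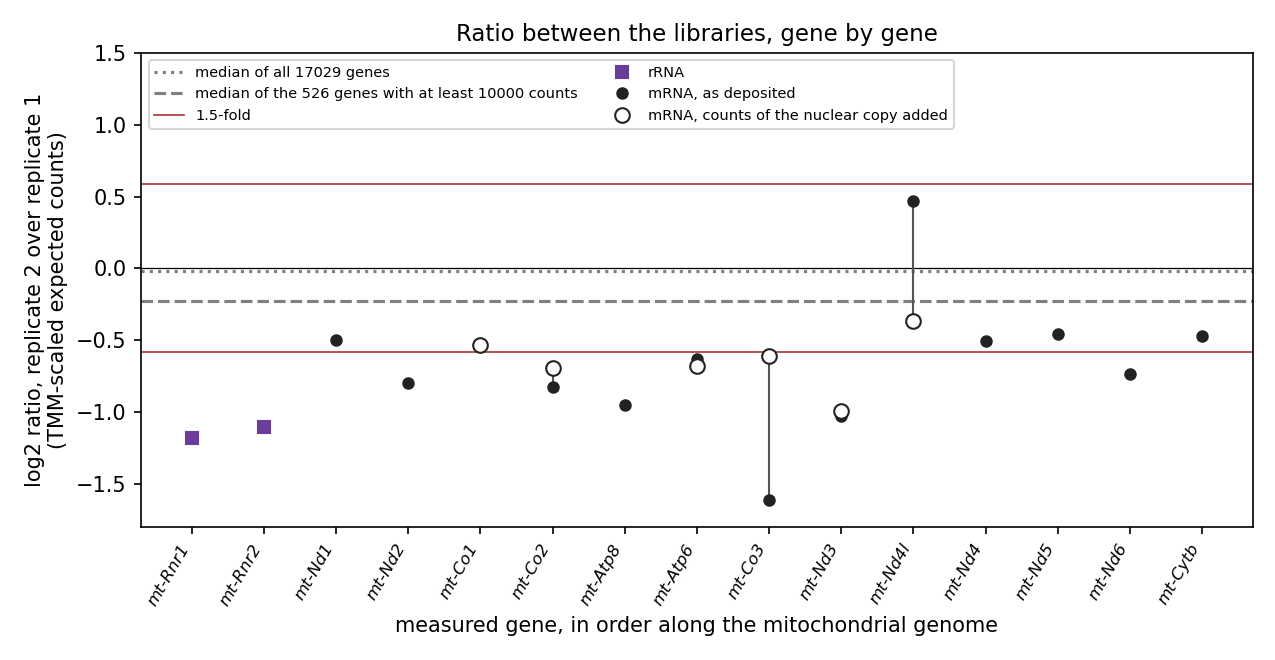
Log2 ratio of replicate 2 over replicate 1 from TMM-scaled expected counts, for the 15 measured genes in genome order, with rRNAs as squares, mRNAs as filled points and open points with the counts of the copy added. Grey lines mark the medians of all genes (-0.02) and of genes with at least 10000 counts (-0.23), and red lines 1.5-fold; both rRNAs lie near -1.1 to -1.2, and the open points of mt-Co3 (-0.61) and mt-Nd4l (-0.37) fall back among the other mRNAs.

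The size of these ratios depended on the scaling. Scaling by the total of Ensembl counts moved every log2 ratio by 0.17 and scaling by the spike-in RNAs by -0.92, and the all-gene median was then 0.16 and -0.93. The mRNA median was -0.46 and -1.55 under these. Such a scaling shifts all genes alike, so the distance of the mRNAs from the all-gene median cannot change and carries no information on stability. The spike-ins took 1.58% of all counts in replicate 1 and 3.12% in replicate 2.

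Short transcripts were lower in replicate 2 across the nuclear genes as well. Of the nuclear genes with at least 10000 counts, the 60 that are up to 800 bases long had a median log2 ratio of -0.48, and 21 of them were past the fold downwards. The 49 genes of 800 to 1200 bases had a median of -0.31, the 143 of 1200 to 2000 bases -0.18 and the 257 longer ones -0.16. Over these 509 genes Spearman's rho between length and ratio was 0.36, and over the 13 mRNAs with copies added it was 0.48, where all points share the same 2 libraries. mt-Atp8 with 204 bases and mt-Nd3 with 348 bases were the 2 lowest mRNAs, but mt-Nd4l with 297 bases was the highest.

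Each member was therefore set beside the nuclear genes within 1.2-fold of its length. For the 10 mRNAs with at least 10 such genes, every ratio was below the nuclear median, at a distance of -0.17 (mt-Nd1) to -0.48 (mt-Nd2) log2 units, with a median distance of -0.27. mt-Nd5, at -0.46, stood against -0.16 for 122 nuclear genes of its length, and 7 of these were as low. For mt-Nd6 2 of 31 were as low, for mt-Nd2 1 of 49, for mt-Co1 6 of 103 and for mt-Nd4 6 of 86. More were as low for the remaining mRNAs: 9 of 39 for mt-Co3, 7 of 37 for mt-Atp6 and 8 of 44 for mt-Nd1. For mt-Cytb it was 9 of 52 and for mt-Co2 5 of 37. The rRNAs stood further off: none of 43 nuclear genes of like length was as low as mt-Rnr1, and none of 107 as low as mt-Rnr2. The median of those genes was -0.34 and -0.18. The part of length in the mitochondrial ratios was not tested.

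**Figure D4:**
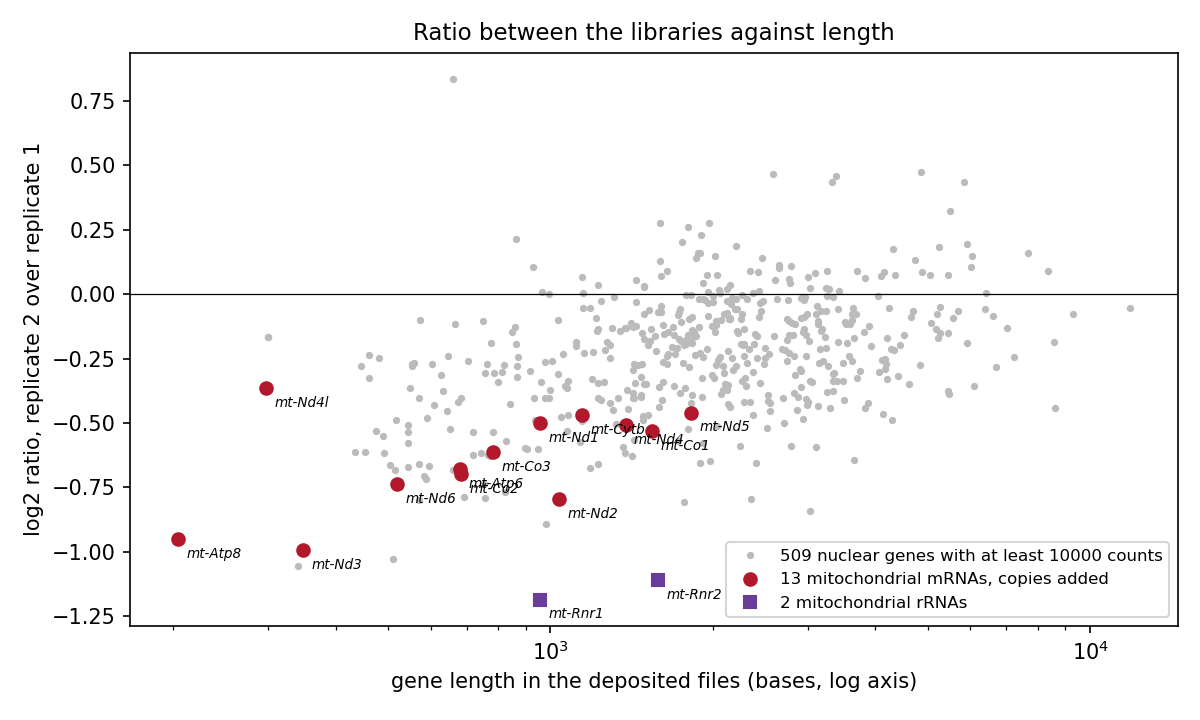
Log2 ratio of replicate 2 over replicate 1 against gene length in bases (log axis) for 509 nuclear genes with at least 10000 counts (grey), the 13 mitochondrial mRNAs with copies added (red circles) and the 2 mitochondrial rRNAs (purple squares). The grey points fall towards short lengths, the mRNAs lie along their lower side, and mt-Rnr1 (-1.19) and mt-Rnr2 (-1.11) lie below the nuclear genes of their length.

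Markers of heart muscle and of other tissues also differed between the libraries. All 12 cardiomyocyte markers were detected, as the labelled tissue holds them, led by the cardiac actin Actc1 at 10855 and 9704 TPM, and their sum was 41604 and 34549 TPM. Their log2 ratios were below 0 for 12 of 12, with a median of -0.46, and 3 were past the fold downwards (Tnni3, Myl2 and Pln). Of the 11 erythroid markers matched, the sum was 122429 and 118359 TPM, led by Hba-a2 with a ratio of -0.28. Their median ratio was -0.03, with 4 past the fold upwards (Hbb-y, Hba-x, Klf1 and Gata1; genes in such brackets were named after their values were seen) and none downwards. The 8 fibroblast markers had a sum of 2788 and 3402 TPM and a median of -0.03, led by Col3a1, and the 8 endothelial markers a sum of 380 and 443 TPM and a median of 0.01, led by Egfl7. None of the fibroblast or endothelial markers was past the fold. Of all genes, 4.74% were past it downwards and 11.2% upwards, and of those with 10000 or more counts 9.70% and 0.190%.

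The summed levels of markers of thymus, liver, lung and nerve, and of macrophages, were higher in replicate 2. The sum of 10 thymocyte markers, led by Cd3g, was 16.5 TPM in replicate 1 and 170 TPM in replicate 2, and 7 of the 7 with enough counts were past the fold upwards. The 8 liver markers, led by Trf, summed to 45.4 and 209 TPM, with 8 of 8 past the fold upwards. The 8 lung epithelium markers, led by Sftpc, summed to 135 and 334 TPM, with 6 of 7 past it. The 8 neuronal and glial markers, led by Stmn2, summed to 11.6 and 59.4 TPM, with 7 of 8 past it, and the 8 macrophage markers, led by Lyz2, to 155 and 228 TPM, with 2 of 8 past it (Cd68 and Fcgr1). Beside these counts, 11.2% of all genes were past the fold upwards and 4.74% downwards. No marker in these lists was listed at 0 in both libraries. The part of these tissues and cells, and of the cardiomyocyte share, in the mitochondrial ratios was not tested.

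Respiratory complexes are built from subunits of both genomes, so the mitochondrial mRNAs were set beside the nuclear ones. For complex V the median mitochondrial level was 11160 TPM against 1249 TPM for 15 nuclear genes in replicate 1, and 7741 against 964 TPM in replicate 2. These 15 include the inhibitor Atpif1 and lack the subunit gene Atp5f1. The log2 ratio was 3.08 ± 0.109 (SD, n = 2). For complex III mt-Cytb stood at 4932 against a nuclear median of 1006 TPM over 9 subunits, and 4190 against 802 TPM, a log2 ratio of 2.34 ± 0.0646 (SD, n = 2). For complex IV the medians were 3386 against 1310 TPM over 14 nuclear subunits and 2093 against 941 TPM, a log2 ratio of 1.26 ± 0.154 (SD, n = 2). With copies added to the mitochondrial mRNAs it was 2.67 ± 0.0104. For complex I the 7 mitochondrial mRNAs had a median of 1220 against 488 TPM over 36 nuclear subunits, and 863 against 399 TPM, a log2 ratio of 1.22 ± 0.149 (SD, n = 2), or 1.60 ± 0.192 with copies. The median of the mitochondrial mRNAs was above the nuclear median in each of these 4 complexes and both libraries, although mt-Nd4l as deposited, at 104 and 169 TPM, was below that of complex I. As deposited, the ratios of complexes I and IV differed by less than their spread, and those of complexes III and V were larger.

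**Figure D5:**
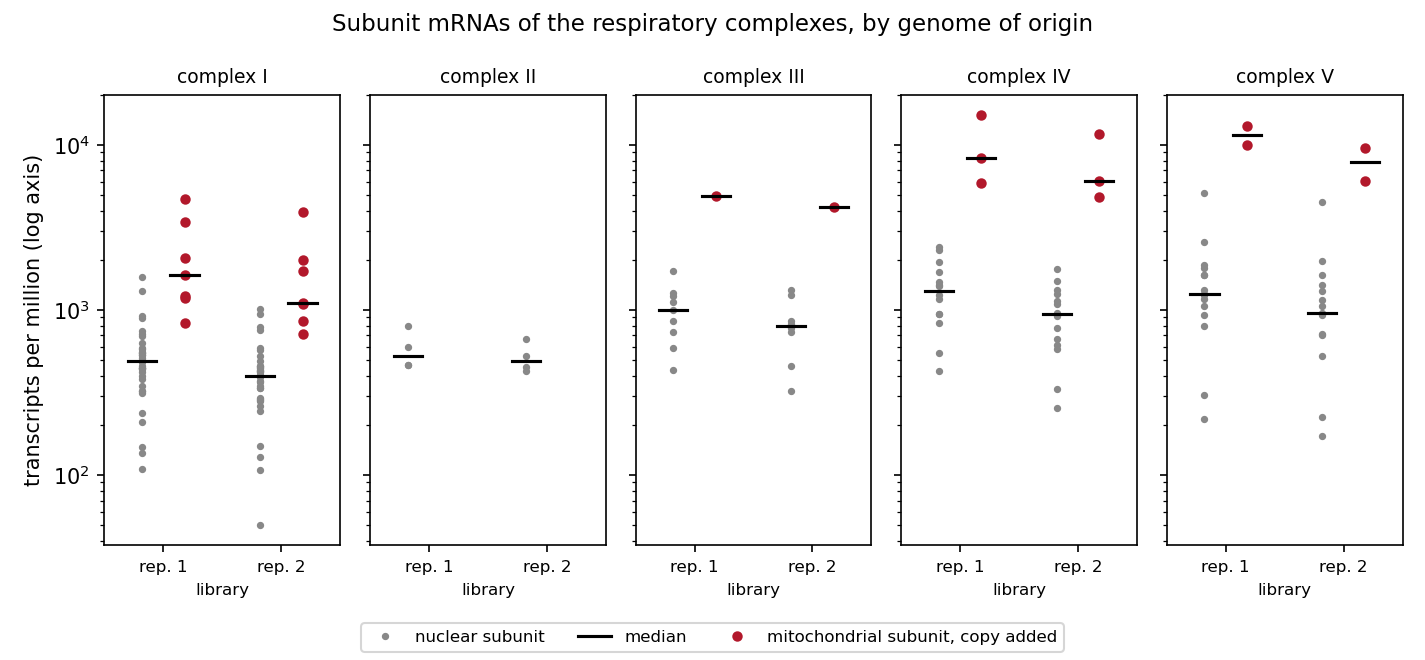
TPM on a log axis of nuclear subunit mRNAs (grey) and mitochondrial subunit mRNAs with copies added (red) of complexes I to V in each library, with bars at the medians. The 3 red points of complex IV lie above all 14 grey points in both libraries, and complex II has no mitochondrial subunit. In complex I, mt-Nd1, mt-Nd2, mt-Nd3 and mt-Nd4 lie above all 36 grey points in both libraries, and mt-Nd4l in replicate 2 alone. The points of mt-Nd5 and mt-Nd6 lie among the grey points.

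The nuclear subunits were also lower in replicate 2. The share of all genes past the fold was 4.74% downwards and 11.2% upwards, and 9.70% and 0.190% among genes with 10000 or more counts. Of 36 in complex I, 13 were past 1.5-fold downwards and none upwards, with a median log2 ratio of -0.53. Ndufc1 had both the highest mean level, at 1577 and 947 TPM, and the lowest ratio at -0.97. The lowest level was that of Ndufb4 at 108 and 50.1 TPM, and the ratio nearest 0 that of Ndufs8 at -0.19. In complex III 4 of 9 were past the fold downwards (Uqcrfs1, Uqcrb, Uqcrq and Uqcr10) with a median of -0.57. Uqcr10 was highest at 1721 and 1323 TPM, Uqcrc2 lowest at 430 and 325 TPM, Uqcrb had the lowest ratio at -0.89, and Uqcrc1 the ratio nearest 0 at -0.24. In complex IV 12 of 14 were past it with a median of -0.76. Cox6b1 was highest at 2391 and 1780 TPM, Cox8b, a muscle isoform, lowest at 425 and 253 TPM, Cox7c had the lowest ratio at -1.12 and Cox6a1 the ratio nearest 0 at -0.40. In complex V 7 of 15 were past it with a median of -0.58. The catalytic beta subunit Atp5b was highest at 5111 and 4510 TPM and nearest 0 at -0.39, Atp5g2 lowest at 220 and 172 TPM, and Atp5k had the lowest ratio at -1.05.

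Complex II, which takes no subunit from the mitochondrial genome, had none of 4 past the fold and a median of -0.41. Sdhb, the iron-sulfur subunit, was highest at 799 and 668 TPM with the lowest ratio at -0.49, Sdhc was the lowest at 462 and 429 TPM, and the flavoprotein Sdha was nearest 0 at -0.26. No fold was crossed upwards in any of the 5 complexes. The medians of the 5 nuclear complexes ran from -0.76 to -0.41, against -0.63 for the mitochondrial mRNAs, and both rRNAs lay below the median of every nuclear list.

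The nuclear genes that make, process and translate mitochondrial RNA were far lower in level and nearer 0 in ratio. Of 16 genes of mitochondrial transcription and DNA replication, 1 was past the fold, the terminator-family gene Mterf1b at 1.55 and 1.03 TPM with a ratio of -0.83. Of all genes, 4.74% were past it downwards and 11.2% upwards, so this count does not set the list apart. The list's median was -0.24. The DNA-binding protein Ssbp1 was the highest of them at 80.4 and 76.8 TPM, and the polymerase accessory subunit Polg2 had the highest ratio at 0.28, at 5.43 and 7.36 TPM. Polrmt, the RNA polymerase, was at 25.2 and 30.4 TPM and Tfam at 44.1 and 43.0 TPM; both are named for their roles, after their values were seen.

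Of 22 genes of RNA cleavage, tailing, stability and decay, none was past the fold and the median was -0.16. The share of all genes past it was 4.74% downwards and 11.2% upwards. Slirp, the partner of Lrpprc in keeping mRNAs stable, was the highest at 216 and 181 TPM with a ratio of -0.45, and the phosphodiesterase Pde12, which removes A tails, the lowest at 5.85 and 6.55 TPM. Trmt10c, an RNase P subunit, had the lowest ratio at -0.46, at 16.6 and 14.2 TPM, and 1110008L16Rik the highest at 0.20. None of the 16 genes of rRNA and tRNA modification was past the fold either, with a median of -0.06. The thiouridylase Trmu was highest at 24.4 and 31.9 TPM, the methyltransferase Nsun3 lowest at 3.62 and 4.13 TPM, Trmt61b lowest in ratio at -0.44 and the pseudouridine synthase Pus1 highest at 0.11.

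Of 19 mitochondrial aminoacyl-tRNA synthetases, which charge the tRNAs that could not be measured here, none was past the fold and the median was -0.15. Lars2, the leucyl enzyme, stood apart at 708 and 622 TPM, against a list median of 21.9 and 24.2 TPM, and had the lowest ratio at -0.42. Mars2 was the lowest at 2.74 and 2.91 TPM, and Wars2 had the highest ratio at 0.20. Of 16 translation factors none was past the fold, with a median of -0.22. The elongation factor Tufm was the highest at 137 and 146 TPM, the release factor Mtrf1 the lowest at 7.55 and 7.67 TPM, Taco1, the activator of mt-Co1 translation, lowest in ratio at -0.43 and Gatc highest at -0.10. Over the 10 nuclear lists 37 of 167 genes (22.2%) were past the fold downwards and none upwards, of which 36 encode subunits of complexes I, III, IV and V. Beside this stand 4.74% of all genes and 9.70% of those with 10000 or more counts. With scaling by total counts the 37 became 15, and the share of all genes at that scaling is not given here.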

How the data were processed

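Expected counts, posterior mean counts and TPM per gene were deposited by the authors for each library, on mm10 with GENCODE M4 and from transcriptome alignments per the file headers. Per the file headers, the same files give each gene's length, effective length, posterior standard deviation and TPM interval bounds. Neither label nor header names the aligner, the quantifier, their versions or the use of strand. The labels call the RNA total RNA, name mirVana extraction and link the SMARTer Ultra Low kit's manual, which primes with oligo(dT); how these libraries were primed was not analysed here. Expected counts totalled 41883313 in replicate 1 and 39697992 in replicate 2 over all features, including 97 spike-ins.

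Symbols came from GENCODE M21 (42462 of 43346 Ensembl genes matched), and 37 of 37 members had the M21 length. Nuclear copies were found with BLAST 2.17.0. Expected counts were rounded to whole numbers for edgeR 4.0.16 (TMM) and DESeq2 1.42.0 (size factors) in R 4.3.3; ratios used the unrounded values. The ratio was tested on simulated data. Called means past 1.5-fold with at least 10 counts in both libraries; with 1 library a pool no p-value was computed. Named genes were all members, pseudogenes matching them at 98% over 200 bases with at least 10 counts, the highest and lowest mean TPM and ratio in each of 10 nuclear lists, and the highest of each of 9 marker lists. Of 168 nuclear symbols, Atp5pb was not matched, nor was Ahsp among the markers. The gene Atp5pb was measured under its M21 symbol Atp5f1, which the list did not hold. The members and lists were chosen with earlier results of these data known, and the comparison by length, the 10000-count background, the posterior mean counts and the sums with copies by complex were chosen after seeing the data. Other scalings, folds, count minimums and each library alone were also computed.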

Additional observations from a re-analysis of the deposited data

How the results depend on the processing

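With 1 library a pool, no result here has a replicate check, and depth was not the limit for the measured genes, whose smallest count was 666. With the copies added the mean mitochondrial share of counts was 4.09% rather than 3.09%, the mean-library median of the 13 mRNAs 4290 rather than 2345 TPM (3644 TPM from posterior means), the heavy over light log2 ratio 2.10 rather than 1.28 (1.92 from posterior mean TPM and 1.89 from counts), and the log2 ratio of mitochondrial to nuclear subunits 1.60 for complex I and 2.67 for complex IV. That ratio was 1.61 for complex I and 2.77 for complex V from mean TPM, and 1.89 for complex IV from posterior mean TPM. Leaving out either library gave a share of 2.49 to 3.70%, a median of 1714 to 3156 TPM, a heavy over light ratio of 1.14 to 1.42 and complex ratios of 1.11 to 1.32 (I), 2.29 to 2.39 (III), 1.15 to 1.37 (IV) and 3.01 to 3.16 (V).

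The median log2 ratio of the 13 mRNAs was -0.63, and it was -0.46 with total counts, -0.48 with totals free of mitochondrial genes, -1.55 with spike-ins, -0.39 from TPM, -0.58 from posterior mean counts and -0.51 over the 7 mRNAs with no copy that took reads. The count of members past the fold downwards, 9, was 7 with either total, 6 from TPM, 8 from posterior mean counts, 14 with spike-ins, 14 at the smaller fold tried and 4 at 2-fold. The 37 nuclear list genes past the fold became 34 with DESeq2 size factors, 15 with either total, 167 with spike-ins, 92 at the smaller fold and 3 at 2-fold, and none was past the fold upwards in any of these. The shares of all genes given above hold for TMM scaling at 1.5-fold, and none is given for these other settings. With spike-ins the median of all genes was itself -0.93, past the fold, so the counts of 14 and 167 there do not single out these genes. No paired analysis was possible because the 2 libraries form a single group.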

Other observations

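Chromosome 2 holds further copies of mitochondrial sequence that are less alike and received few counts. Gm13340 matches mt-Co1 over 1545 bases at 97.6% and had 79.7 counts in replicate 1 and 57.4 in replicate 2. Gm13341 matches mt-Co2 over 684 bases at 95.9% and had 44.3 and 32.6 counts. The copies on chromosome 1 that are identical to mt-Co2 and mt-Co3 had 97281 and 260150 counts in replicate 1.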
